A study of Mus musculus with 10 samples.

Results

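Major histocompatibility complex (MHC) class II genes were followed in neutrophils prepared from mouse bone marrow, with and without the gene Lcn2 and with and without the chemoattractant peptide fMLP. The set was listed by gene name, with earlier results of these data known: Cd74, Ciita, H2-Aa, H2-Ab1, H2-Eb1, H2-DMa and H2-Ob. All probe sets that name 1 of these genes alone were taken, which gave 1 probe set for each of the 7 genes. All 7 passed the filter on low signal, and they are 7 of the 14070 genes tested and of the 19938 genes with such a probe set.

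The 10 Affymetrix Mouse Gene ST arrays fell into 4 groups. There were 2 arrays of Lcn2 knockout (KO) cells treated with fMLP, 2 of wild type (WT) cells treated with fMLP, 3 of unstimulated KO cells and 3 of unstimulated WT cells. The fMLP treatment was 10 micromolar for 20 minutes at 37 degrees Celsius. The labels give every group as female C57BL/6 mice aged 10 weeks. They do not give the knockout allele, whether the unstimulated cells were also warmed, or whether replicates were separate animals, so p-values measure the spread between these samples, which may be technical. The cells were a density fraction of the marrow and were not sorted, so other marrow cells can be present. In such bulk RNA, fewer cells of a type and less RNA per cell cannot be told apart.

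MHC class II molecules are pairs of an alpha and a beta chain that carry peptides from engulfed or recycled proteins to the cell surface, where CD4 T cells read them. The invariant chain encoded by Cd74 holds new class II molecules until they reach acidic vesicles, DM then exchanges the remnant of that chain for other peptides, and DO restrains DM. B cells, dendritic cells and macrophages are the usual class II cells of the marrow. Neutrophils are known for low class II expression that can rise under some cytokines. Lcn2 encodes lipocalin 2, a granule protein that binds bacterial iron carriers, and fMLP is a formylated peptide that attracts and activates neutrophils.

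The arrays differed before any comparison of groups. Unstimulated replicates 1 and 2 of both genotypes (array set 1) had interquartile ranges of 1.64 to 1.68 on the log2 scale, and the other 6 arrays (array set 2) had 2.47 to 2.59. The fMLP arrays all lay in set 2, with replicate 3 of unstimulated KO and WT cells. The Lcn2 signal was 8.09 to 9.60 on the KO arrays, against 13.88 to 14.16 on the WT arrays. The mean of 12 neutrophil markers was 12.4 to 12.8 on set 1 and higher on all of set 2, up to 13.6. The array of fMLP KO replicate 2 stood apart from the other fMLP arrays: its neuronal gene Snap25 was at 13.43, against 7.36 to 8.78 on all others. The female label was not borne out on every array. The X-inactivation RNA Xist was at 9.83 to 11.12 on fMLP arrays, against 6.88 to 7.82 on unstimulated arrays. The Y-linked Eif2s3y was at 5.36 to 6.48 on fMLP arrays, against 9.59 on unstimulated KO replicate 3 and 9.83 on unstimulated WT replicate 3, and was 6.77 to 7.22 on set 1. This difference runs along the fMLP comparison and cannot be told apart from it.

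Without fMLP KO replicate 2, Ciita, H2-Eb1, H2-DMa and H2-Ob were higher after fMLP than on the unstimulated arrays of the same set, by 0.70 to 1.15 on the log2 scale, while Cd74, H2-Aa and H2-Ab1 had differences of 0.97 to 1.20 that did not pass the test. With that array included, or with fMLP KO replicate 1 left out in its place, no member passed. Knockout and wild type did not differ beyond the spread in either condition, and the genotype difference changed sign between pairs of arrays. B cell markers varied over the arrays much as the class II genes did.

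Cd74, on chromosome 18, encodes the invariant chain. Its signal was 12.90 and 11.84 (log2) on the 2 fMLP KO arrays and 12.80 and 12.29 on the 2 fMLP WT arrays. It was 9.18, 10.50 and 11.95 on unstimulated KO replicates 1 to 3, and 10.00, 9.98 and 11.12 on unstimulated WT replicates 1 to 3. Both replicate 3 arrays were higher than the set 1 arrays, and 3 fMLP arrays were higher than both replicate 3 arrays. The exception was fMLP KO replicate 2, which lay between the KO and WT arrays of replicate 3.

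H2-Aa and H2-Ab1 encode the alpha and beta chains of I-A, the one class II molecule that C57BL/6 mice display. H2-Aa was at 12.31 and 10.64 on fMLP KO arrays, 12.18 and 11.31 on fMLP WT arrays, 8.23, 9.87 and 11.25 on unstimulated KO arrays, and 9.53, 9.26 and 10.42 on unstimulated WT arrays. H2-Ab1 was at 12.17 and 10.46 on fMLP KO arrays, 12.13 and 11.18 on fMLP WT arrays, 8.81, 9.78 and 11.27 on unstimulated KO arrays, and 9.54, 9.36 and 10.61 on unstimulated WT arrays. Unstimulated KO replicate 1 was the lowest array for both chains. For H2-Ab1, fMLP WT replicate 2 lay below unstimulated KO replicate 3, so the groups overlapped even without fMLP KO replicate 2.

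H2-Eb1 encodes the beta chain of I-E. Its signal was 11.55 and 10.20 on fMLP KO arrays, 11.50 and 10.76 on fMLP WT arrays, 10.03, 10.11 and 10.70 on unstimulated KO arrays, and 10.57, 10.04 and 10.24 on unstimulated WT arrays. The set 1 and set 2 arrays of unstimulated cells overlapped here, unlike for H2-Aa and H2-Ab1. Its partner H2-Ea, looked up after the values of the others were seen, is not functional in this strain, and its signal was 6.67 to 6.94 on the fMLP arrays, against 6.82 to 7.53 on the unstimulated arrays.

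The peptide editors were lower on every array of set 1 than on any array of set 2. H2-DMa, the alpha chain of DM, was at 10.82 and 9.32 on fMLP KO arrays, 10.65 and 10.15 on fMLP WT arrays, 8.79, 8.99 and 9.60 on unstimulated KO arrays, and 8.99, 8.87 and 9.56 on unstimulated WT arrays. H2-Ob, the beta chain of DO, was at 11.59 and 10.05 on fMLP KO arrays, 11.50 and 10.71 on fMLP WT arrays, 9.17, 9.45 and 10.47 on unstimulated KO arrays, and 9.37, 9.04 and 9.93 on unstimulated WT arrays. Both were highest on replicate 1 of the fMLP arrays, and fMLP KO replicate 2 was the lowest fMLP array for each. The DM beta chains share a probe set that names H2-DMb1 and H2-DMb2 together, so it is no member and was not tested. It was looked up after the other values, and stood at 10.81 and 9.45 on fMLP KO arrays, 10.79 and 10.14 on fMLP WT arrays, 8.77, 9.28 and 9.90 on unstimulated KO arrays, and 9.04, 8.90 and 9.50 on unstimulated WT arrays.

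Ciita, on chromosome 16, encodes the class II transactivator, the coactivator that class II gene transcription depends on. It was at 9.42 and 8.34 on fMLP KO arrays, 9.32 and 8.77 on fMLP WT arrays, 9.01, 8.99 and 8.67 on unstimulated KO arrays, and 9.08, 8.93 and 8.39 on unstimulated WT arrays. Among the unstimulated arrays it ran against the other members: the set 2 mean minus the set 1 mean was -0.47 for Ciita and 0.28 to 1.62 for the other 6. Levels of the members are therefore compared within set 2 or with the array set as a block.

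**Figure D1:**
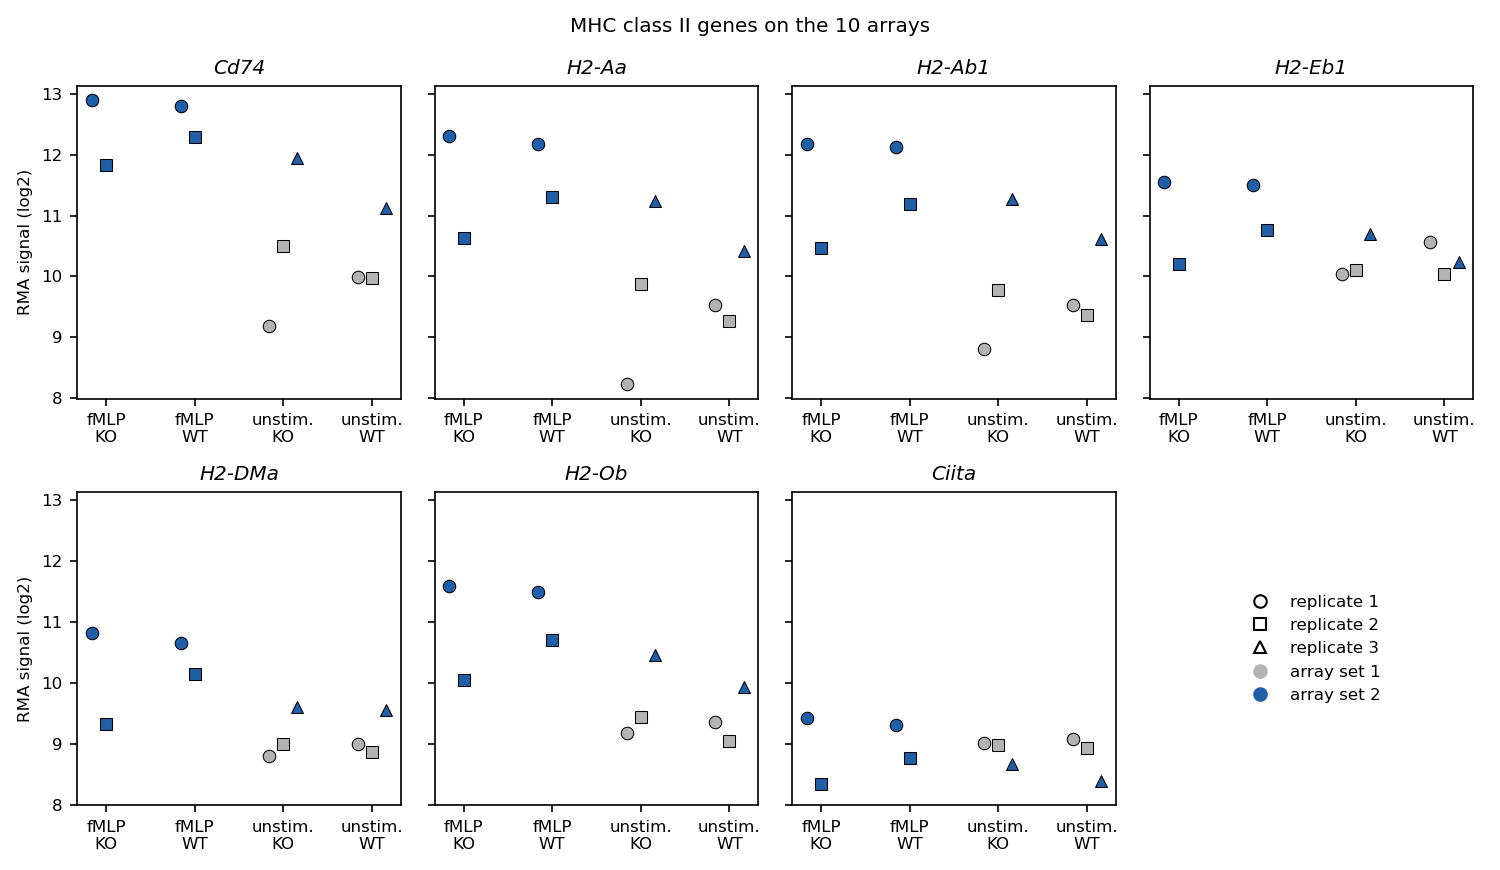
RMA signal (log2, vertical axis) of the 7 class II genes on each array, with fMLP KO, fMLP WT, unstimulated KO and unstimulated WT from left to right in each panel. Marker shape gives the replicate and colour the array set. The lower of the 2 fMLP KO points is replicate 2 in every panel, and Cd74 spans 9.18 to 12.90 over the arrays.

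H2-DMa, H2-Ob, H2-Ab1, H2-Aa and H2-Eb1 are on chromosome 17 in the MHC region, in that order in the reference annotation. RefSeq promoter windows (GRCm38.p6), which run from 250 bases before to 50 after the gene start, were held for 4 members: H2-Aa, H2-Eb1, H2-Ob and H2-DMa. They are shown because class II promoters are known for X and Y boxes. These boxes bind the RFX, CREB and NF-Y factors that recruit the class II transactivator. Capitals mark matches, on either strand, to the Y box core ATTGG, its extended form CTGATTGG (which holds the core), the X1 box consensus, the X2 core TGACG and a GAS-like motif TTCNNNGAA.
H2-Aa, chr17:34287774-34288073, minus strand: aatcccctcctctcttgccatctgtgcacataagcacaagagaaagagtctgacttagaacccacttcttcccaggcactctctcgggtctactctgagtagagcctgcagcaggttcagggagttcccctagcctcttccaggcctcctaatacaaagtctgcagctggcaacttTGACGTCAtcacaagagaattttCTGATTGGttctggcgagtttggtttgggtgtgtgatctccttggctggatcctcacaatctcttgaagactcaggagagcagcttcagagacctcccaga
H2-Eb1, chr17:34305617-34305916, plus strand: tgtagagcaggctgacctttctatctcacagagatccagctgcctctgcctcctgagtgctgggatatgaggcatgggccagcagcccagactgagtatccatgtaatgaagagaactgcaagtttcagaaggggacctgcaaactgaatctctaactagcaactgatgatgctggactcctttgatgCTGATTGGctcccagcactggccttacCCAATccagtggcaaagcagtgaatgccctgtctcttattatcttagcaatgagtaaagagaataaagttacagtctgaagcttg
H2-Ob, chr17:34238655-34238954, plus strand: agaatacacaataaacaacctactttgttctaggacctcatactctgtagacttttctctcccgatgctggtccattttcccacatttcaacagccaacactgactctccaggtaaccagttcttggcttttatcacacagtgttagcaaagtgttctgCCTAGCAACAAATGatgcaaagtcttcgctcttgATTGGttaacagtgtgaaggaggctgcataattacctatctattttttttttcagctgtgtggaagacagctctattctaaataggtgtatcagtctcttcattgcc
H2-DMa, chr17:34122582-34122881, plus strand: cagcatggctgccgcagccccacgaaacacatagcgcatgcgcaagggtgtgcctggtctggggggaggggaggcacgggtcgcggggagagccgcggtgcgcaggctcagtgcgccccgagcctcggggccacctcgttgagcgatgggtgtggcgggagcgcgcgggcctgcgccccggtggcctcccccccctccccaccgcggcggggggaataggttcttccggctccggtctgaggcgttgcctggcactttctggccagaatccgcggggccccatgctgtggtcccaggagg

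The gene start is base 251 of each window. H2-Aa and H2-Eb1 each held the extended Y box, at bases 200 to 207 and at bases 189 to 196, and H2-Aa also held the X2 core on both strands at bases 177 to 184, in overlapping matches. H2-Eb1 had a further Y box core on the other strand at bases 216 to 220. H2-Ob held an X1 box at bases 160 to 173 and a Y box core at bases 194 to 198. The window of H2-DMa above had no match, and its other window, at chr17:34125268-34125567, had a Y box core at bases 53 to 57. Which gene start H2-DMa uses in these cells was not tested, so the window without a match may not be its main promoter. Of all 32851 RefSeq windows, 37.4% held the Y box core, 4.1% its extended form, 1.16% the X1 box, 20.8% the X2 core and 8.3% the GAS-like motif, which was in no window of these 4 genes. A match is a match of letters only.

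The first comparison asked whether cells after fMLP differed from unstimulated cells. The model was fitted with limma over all 14070 genes with the array set as a block, so that the 4 fMLP arrays were set against unstimulated replicate 3 of KO and WT. Differences are log2 values of fMLP minus unstimulated, averaged over genotype, and calls used a Benjamini-Hochberg adjusted p below 0.05. Over all 10 arrays, 0 of the 7 members were called, and 0 had an unadjusted p below 0.05. In the same fit 0.341% of all genes were called (48 genes), and 2056 had an unadjusted p below 0.05. All 7 differences were above 0, with a median of 0.66, while the median of all genes tested was -0.02. The largest was that of Cd74, at 0.92 (SE 0.43, limma adjusted p = 0.376), and the smallest that of Ciita, at 0.43 (SE 0.28, limma adjusted p = 0.527).

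Without fMLP KO replicate 2, 4 of the 7 members were called, all higher after fMLP, and all 7 had an unadjusted p below 0.05. Here 10.1% of all genes were called in either direction, 6.36% were called higher and 3.79% lower, so the fit as a whole called far more genes. H2-DMa was 1.03 higher (SE 0.14, limma adjusted p = 0.00246), H2-Ob was 1.15 higher (SE 0.22, limma adjusted p = 0.00999), Ciita was 0.70 higher (SE 0.15, limma adjusted p = 0.0189) and H2-Eb1 was 0.87 higher (SE 0.24, limma adjusted p = 0.0444). The log2 difference of H2-DMa is a 2.05-fold ratio of signals. The remaining 3 members had large differences with a wider spread and missed the threshold: Cd74 at 1.18 (SE 0.35, limma adjusted p = 0.0572), H2-Ab1 at 0.97 (SE 0.33, limma adjusted p = 0.0921) and H2-Aa at 1.20 (SE 0.44, limma adjusted p = 0.124). The median over the members was 1.03, against -0.01 over all genes tested. The lone fMLP KO array of that fit is assumed to vary like the other groups.

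With fMLP KO replicate 1 left out in its place, limma called 0 of the 7 members and 0 had an unadjusted p below 0.05, where 28.8% of all genes were called. The differences were then 0.12 for H2-Ab1 to 0.66 for Cd74, with a median of 0.28 against -0.05 over all genes tested, and with 0.28 for H2-DMa, 0.38 for H2-Ob, 0.19 for H2-Eb1 and 0.16 for Ciita. Whether the members passed thus depended on which fMLP KO array was kept.

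Single arrays show where these values come from. Against unstimulated replicate 3 of the same genotype, the 7 members were higher by 0.75 to 1.22 on fMLP KO replicate 1 and lower by 0.12 to 0.81 on fMLP KO replicate 2. They were higher by 0.93 to 1.76 on fMLP WT replicate 1 and by 0.38 to 1.17 on fMLP WT replicate 2. On these 4 arrays 46.8%, 38.7%, 48% and 50% of all genes were higher than on replicate 3, in the same order. The 3 fMLP arrays other than KO replicate 2 were all above both replicate 3 arrays for 6 of the 7 members, H2-Ab1 being the exception, and for 26.8% of all genes. All 4 fMLP arrays were above both for 0 of the 7 members and for 11.9% of all genes. Only 2 unstimulated arrays lie in set 2, and an exact permutation of 4 arrays against 2 could give no p below 0.0667.

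**Figure D2:**
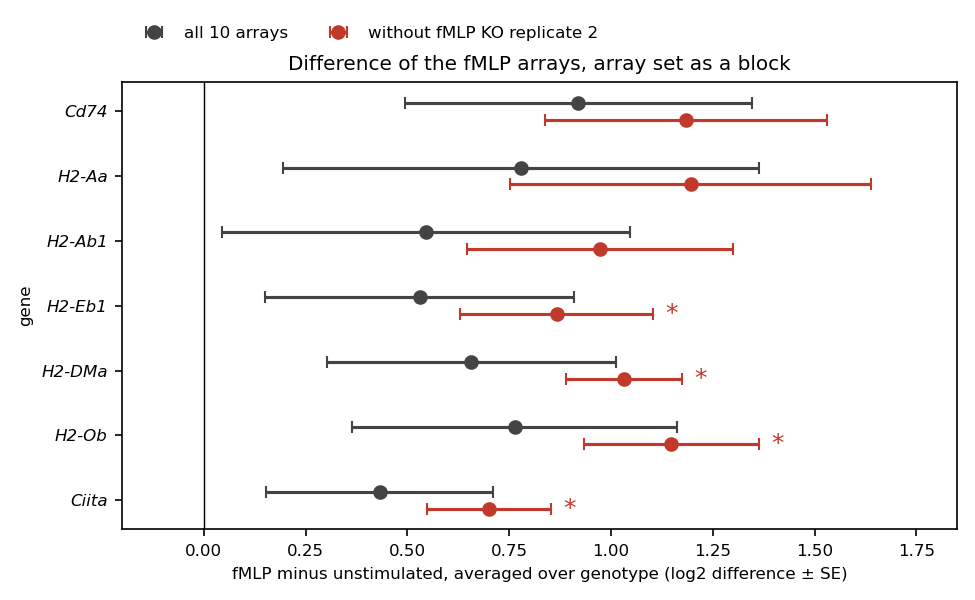
Difference between fMLP and unstimulated arrays, averaged over genotype, for each class II gene (log2 difference on the horizontal axis, points with SE), with all 10 arrays and without fMLP KO replicate 2. Asterisks mark a limma adjusted p below 0.05: H2-Eb1, H2-DMa, H2-Ob and Ciita without that array, and no gene with all arrays.

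Set against the mean of the remaining 3 fMLP arrays, fMLP KO replicate 2 was lower for all 7 members, with a median log2 difference of -1.22. The difference was -1.37 for H2-Ab1, -1.29 for H2-Aa and -0.82 for Cd74 and for Ciita, the members at the ends of the range. By the same measure 8432 of all 14070 genes tested were lower on this array, with a median of -0.11. The array was below each of the 3 others for 52.7% of all genes. The 6 neuronal markers tested were all higher on it, by a median of 4.14, and all 18 B cell markers were lower, with a median difference of -0.98. The fMLP WT arrays also differed between themselves, and replicate 2 was lower than replicate 1 for all 7 members and for 46.9% of all genes, with a median difference over the members of -0.74. The B cell markers were split there, with 9 of 18 higher on WT replicate 2 and a median difference of 0.00105, while 6 of 7 T and NK cell markers were lower, with a median of -0.71.

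The second comparison asked whether loss of Lcn2 changed the class II genes. In unstimulated cells 0 of the 7 members were called by limma and 0 had an unadjusted p below 0.05. Of all genes tested, 0.00711% were called (1 gene, Lcn2), and 75 had an unadjusted p below 0.05. KO minus WT differences ran from -0.01 for H2-DMa (SE 0.33) to 0.25 for H2-Ob (SE 0.38), with 0.18 for Cd74 (SE 0.40) and 0.05 for H2-Aa (SE 0.55), all with a limma adjusted p of 1.

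The pairs of arrays with the same replicate number lay on both sides of 0. In unstimulated replicate 1 all 7 members were lower in KO than in WT, with a median of -0.54 and the largest difference for H2-Aa at -1.30. In unstimulated replicate 2 all 7 were higher in KO, by a median of 0.41, and in replicate 3 all 7 were higher in KO, by a median of 0.53, with Cd74 at 0.83 and H2-Aa at 0.83. Of all genes, 53%, 50% and 56.2% were higher in KO in these 3 pairs. The medians of the B cell markers had the same signs, with 1, 13 and 18 of 18 higher in KO and medians of -0.26, 0.08 and 0.42.

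After fMLP 0 of the 7 members were called between KO and WT, and 0 had an unadjusted p below 0.05, where 0.00711% of all genes were called and 1182 had an unadjusted p below 0.05. The differences were -0.16 to -0.34, with limma adjusted p-values of 0.660 to 0.852. In pair 1 all 7 were higher in KO, by 0.04 to 0.17, and in pair 2 all 7 were lower in KO, by 0.43 to 0.83. The result turned on which KO array was used. Leaving out fMLP KO replicate 2, the differences were 0.35 to 0.57, with 0 members called, 1 with an unadjusted p below 0.05 and a limma adjusted p of 1 for each. Leaving out fMLP KO replicate 1, they were -0.70 to -1.20, and 5 members were called lower in KO, but 31.3% of all genes were called lower in that fit. In both of these fits the lone fMLP KO array is assumed to vary like the other groups. The B cell markers were higher in KO for 15 of 18 in pair 1 and for 0 of 18 in pair 2.

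**Figure D3:**
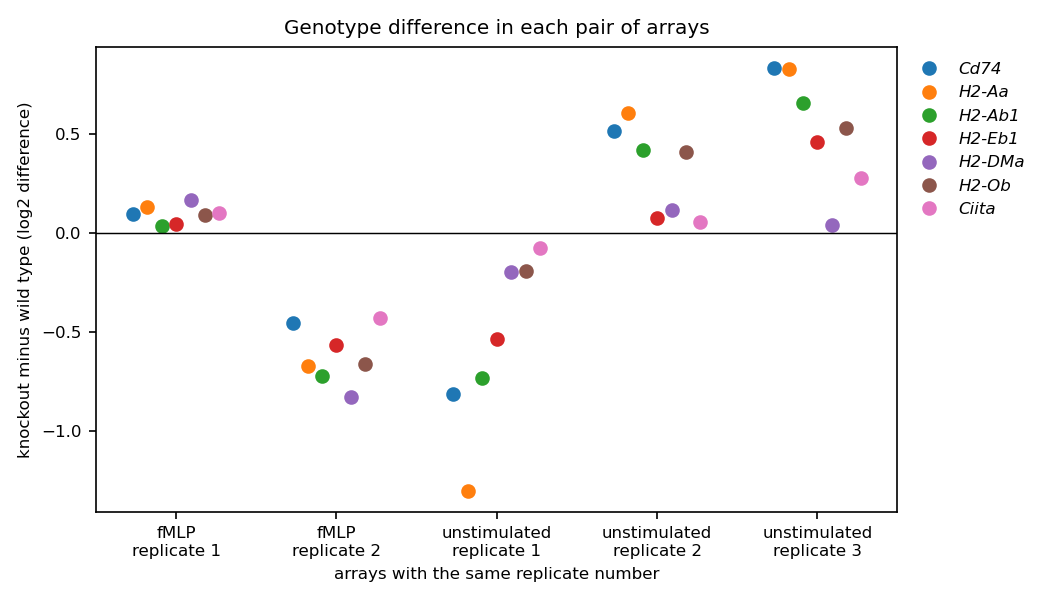
KO minus WT (log2 difference, vertical axis) of each class II gene in the 5 pairs of arrays with the same replicate number. The 7 genes lie on one side of 0 within every pair, below it in unstimulated replicate 1 and fMLP replicate 2 and above it in the other 3 pairs.

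Whether the fMLP difference depended on genotype was tested with the interaction term. It was negative for all 7 members, at -0.25 to -0.53, with limma adjusted p-values of 0.793 to 0.904, and 0 members were called or had an unadjusted p below 0.05. Of all genes 0% were called and 258 had an unadjusted p below 0.05. The terms were 0.17 to 0.52 without fMLP KO replicate 2, with 0 called and a limma adjusted p of 0.9999 each. When fMLP KO replicate 1 was left out, 3 members were called lower (Ciita at -0.79, H2-DMa at -1.07 and H2-Ob at -1.30), where 24% of all genes were.

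The members varied together over the arrays. Over the 9 arrays without fMLP KO replicate 2, with each array set centred on its mean, Pearson's r between members was 0.771 to 0.980. Among Cd74, H2-Aa and H2-Ab1, r was 0.957 to 0.979. Among Ciita, H2-Eb1, H2-DMa and H2-Ob it was 0.903 to 0.980. These groups were not cleanly apart, since r between H2-Ab1 and H2-Ob was 0.912. The r between Ciita and H2-Aa was the lowest of all pairs. These points share their arrays and the fMLP difference, and r is given as a description.

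The 10 other tested genes most like the mean of the members, by the same measure over 9 arrays, had r of 0.956 to 0.986. Cd22, an inhibitory coreceptor of B cells, was first with 0.986, followed by Btla, an inhibitory receptor of lymphocytes, with 0.977, Sapcd1 with 0.974 and Sec61a2, a subunit of the protein-conducting channel of the endoplasmic reticulum, with 0.971. Fcmr, a receptor for IgM, had 0.970, Thrap3 0.969, Gimap4, a GTPase of lymphocytes, 0.963, Tsr1 0.962, Sh3bp2 0.960 and Shisa5 0.956. Cd22 and Fcmr are on the B cell list. With fMLP KO replicate 2 included, r stayed at 0.966 or above for Cd22, Btla, Fcmr, Thrap3, Gimap4 and Tsr1, and was 0.72 for Sapcd1, 0.807 for Sh3bp2, 0.796 for Shisa5 and -0.22 for Sec61a2.

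The rest of the class II pathway was read from a list of 22 genes: the other chains, the promoter-binding factors, the lysosomal proteases, the ubiquitin ligases of class II molecules and the costimulatory molecules. Of these 20 had a probe set of their own and 19 were tested. Over all 10 arrays 0 of 19 were called for fMLP and 2 had an unadjusted p below 0.05, with a median difference of 0.12. In the fit without fMLP KO replicate 2, 4 of 19 were called higher and 0 lower, with a median of 0.23, where 6.36% of all genes were called higher.

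Those 4 genes had different roles. H2-Oa, the alpha chain of DO and so the partner of H2-Ob, was at 9.79 and 8.53 on fMLP KO arrays and 9.53 and 8.88 on fMLP WT arrays, against 8.64 on unstimulated KO replicate 3 and 8.47 on unstimulated WT replicate 3. It was 0.94 higher without fMLP KO replicate 2 (limma adjusted p = 0.00850). H2-Eb2, a class II beta chain gene beside H2-Eb1, was 0.91 higher (limma adjusted p = 0.0342), and Rfx5, a subunit of the RFX complex that binds the X box, was 0.39 higher (limma adjusted p = 0.0382).

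Ctsl encodes cathepsin L, a lysosomal protease that can cut the invariant chain. It was at 10.29 and 10.48 on fMLP KO arrays and 10.58 and 11.08 on fMLP WT arrays, against 9.32 on unstimulated KO replicate 3 and 9.46 on unstimulated WT replicate 3. All 4 fMLP arrays were above both unstimulated arrays of set 2, and fMLP KO replicate 2 was not the lowest. Its difference was 1.17 without fMLP KO replicate 2 (limma adjusted p = 0.00468) and 1.22 with it (limma adjusted p = 0.0556). Ctss, which encodes cathepsin S, the protease that trims the invariant chain in B cells and dendritic cells, had a difference of -0.63 over all arrays (limma adjusted p = 0.371). Marchf1, a ubiquitin ligase that removes class II molecules from the surface, had 0.32 (limma adjusted p = 0.334), Nfyc, a subunit of the Y box factor NF-Y, 0.21 (limma adjusted p = 0.362) and Rfx5 0.29 (limma adjusted p = 0.371) over all arrays.

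Genes of the class I pathway, which shows peptides from within the cell, were read from a second list. Of 14 listed genes 12 had a probe set and were tested. H2-K1 and H2-D1, the listed genes of the class I chains that hold the peptide, had no probe set of their own and were not read. The median fMLP difference of the 12 was -0.07 with and without fMLP KO replicate 2. Over all 10 arrays 1 of the 12 had a difference above 0, limma called 0 of 12, and 3 had an unadjusted p below 0.05. Without fMLP KO replicate 2, Tapbp, which encodes tapasin, was called higher by 0.55 (limma adjusted p = 0.0162), and Pdia3, a disulfide isomerase of the peptide-loading complex, was called lower with a difference of -0.42 (limma adjusted p = 0.0405). Over all arrays, Tapbp had a difference of 0.29 (limma adjusted p = 0.643), Pdia3 -0.34 (0.296), the peptide-trimming gene Erap1 -0.32 (0.225) and the immunoproteasome genes Psmb8 and Psmb10 -0.55 (0.300) and -0.33 (0.471). Between KO and WT limma called 0 of the 19 class II pathway genes and 0 of the 12 class I genes, with 0 of each at an unadjusted p below 0.05, in unstimulated cells and after fMLP over all 10 arrays.

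Markers of other marrow cells were measured beside the class II genes. The mean of 18 B cell markers was 11.29 and 10.08 on fMLP KO arrays and 11.05 and 10.92 on fMLP WT arrays. It was 8.93, 9.24 and 10.54 on unstimulated KO arrays, and 9.17, 9.15 and 10.13 on unstimulated WT arrays. The mean of the 7 class II genes was 11.54 and 10.12 on fMLP KO arrays, 11.44 and 10.74 on fMLP WT arrays, 9.03, 9.67 and 10.56 on unstimulated KO arrays, and 9.58, 9.36 and 10.04 on unstimulated WT arrays. Both means were highest on fMLP KO replicate 1 and lowest on unstimulated KO replicate 1. On set 2 both put fMLP KO replicate 2 and the unstimulated arrays below the other 3 fMLP arrays.

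All 18 B cell markers had fMLP differences above 0 over all 10 arrays, with a median of 0.51, 0 called and 2 at an unadjusted p below 0.05. With fMLP KO replicate 2 left out, all 18 were again above 0, with a median of 0.82 against -0.01 over all genes tested. The 3 brightest were Cd79b and Cd79a, the signalling chains of the B cell receptor, at 1.05 and 0.97, and Cd37, a tetraspanin of B cells, at 0.45 in that fit. The r between the B cell mean and the class II mean was 0.946 over 9 arrays and 0.951 over 10, as a description of arrays that share their labelling and the fMLP difference. For T and NK markers r was 0.882 over 9 arrays. Without fMLP KO replicate 2, 6 of the 7 tested had differences above 0, with a median of 0.69. Cd3e, a chain of the T cell receptor complex, was at 1.13. No array value is a zero, so absence of a cell type cannot be read from these signals. The part of B or T cell RNA in the class II differences was not tested.

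Other marker lists ran differently. The mean of 15 dendritic cell markers was 8.78 and 8.73 on fMLP KO arrays, 8.75 and 8.67 on fMLP WT arrays, 8.74 to 8.86 on unstimulated KO arrays and 8.73 to 8.76 on unstimulated WT arrays. Of 13 tested, 7 had differences above 0 without fMLP KO replicate 2, with a median of 0.01. Ccr7, a homing receptor, was at 1.93, Cd209a at -0.49 and Siglech at -0.44. The mean of 15 monocyte and macrophage markers on set 2 was 9.18 and 8.32 on fMLP KO arrays and 9.07 and 9.15 on fMLP WT arrays, against 9.55 on the unstimulated KO array and 9.85 on the unstimulated WT array. Of 14 tested in that list, 4 had differences above 0 without fMLP KO replicate 2, with a median of -0.31. The r with the class II mean was -0.767 over 9 arrays and -0.03 over 10. Of 12 neutrophil markers 0 were called and 0 had an unadjusted p below 0.05, with a median of -0.03 without fMLP KO replicate 2. Of 5 B cell progenitor markers tested, 2 had differences above 0 without fMLP KO replicate 2, with a median of -0.17. They were Rag1 at 0.72 and Il7r at 0.66, while Igll1 was at -0.34, Vpreb1 at -0.32 and Erg at -0.17. Of 5 plasma cell markers 3 had differences above 0 in that fit, with a median of 0.08. The differences ran from -2.10 for Jchain to 0.48 for Mzb1.

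**Figure D4:**
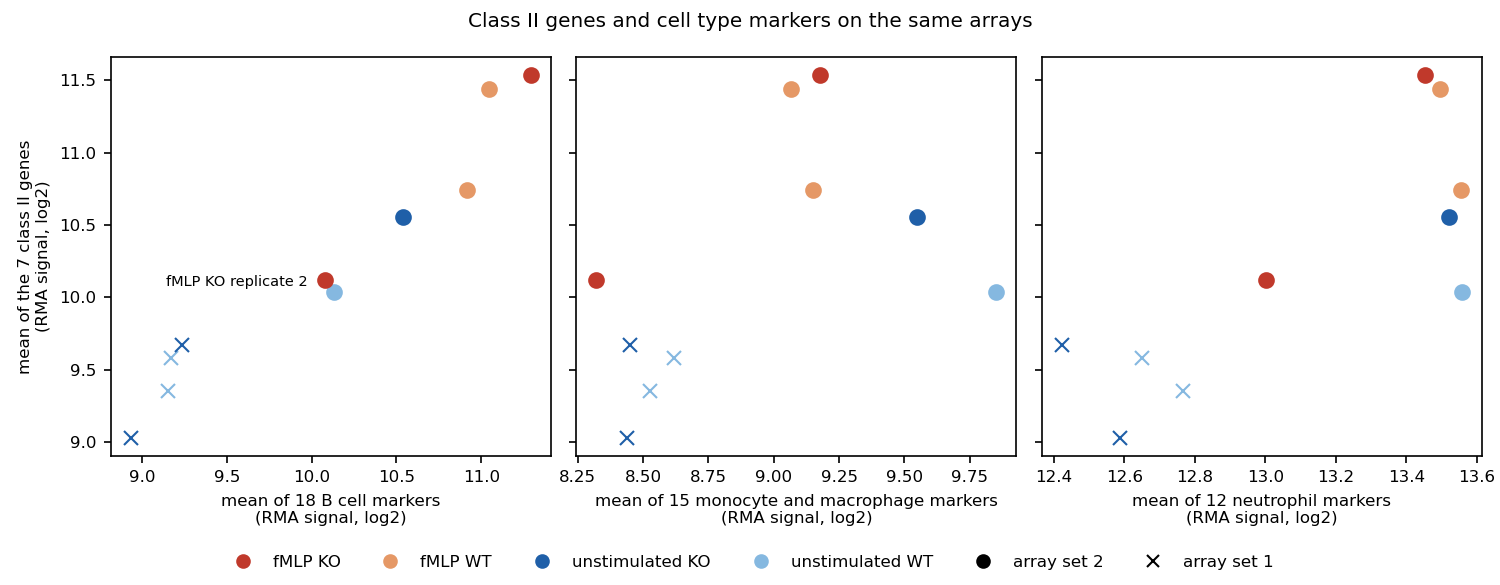
Mean signal of the 7 class II genes (vertical axis, log2) against the mean of 18 B cell, 15 monocyte and macrophage, and 12 neutrophil markers (horizontal axes, log2), 1 point an array, with colour for the group and shape for the array set. The 3 arrays with a class II mean of 10.74 to 11.54 are those with the highest B cell mean, 10.92 to 11.29, and the neutrophil mean does not set them apart from the unstimulated arrays of set 2.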

How the data were processed

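Total RNA of each sample was hybridised to 1 Affymetrix Mouse Gene ST array. The values deposited by the authors are RMA signals from Affymetrix Expression Console, per the submitters' processing notes. They were read as log2 values from their range, 3.91 to 14.81, since the log base of the deposited table is not stated, and neither is whether all arrays were processed in 1 run. RMA subtracts background, equalises distributions over the arrays processed together and summarises probes. Since arrays give no read depth, precision is limited by how many there are: exact permutation can give no p below 0.1 for 3 arrays against 3, or below 0.333 for 2 against 2.

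Of 35556 probe sets, 21789 name 1 gene, 1621 several and 12146 none. 21698 of the first matched the reference gene table, which updated 0 symbols and was used for names, gene order and RefSeq promoters. Each gene took its brightest probe set, and was tested if at least 2 arrays exceeded the median of all values, 8.18. The 4 comparisons were fitted two-sided with limma 3.58.1 in R 4.3.3, with 4 group coefficients and the array set (interquartile range below or above 2) as a block, leaving 5 residual degrees of freedom. Without fMLP KO replicate 2, 4 were left. The code of the fit was run on simulated data with planted fMLP differences, equal and independent noise on all genes and arrays, and no outlying array. That run does not speak to the spread of the real arrays. Adjustment was by Benjamini-Hochberg over all genes tested, with calls below 0.05.

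The members, gene lists, array sets and designs were chosen with earlier results of these data known. Named genes were the 7 members; of the class II pathway and class I lists the 5 with the smallest p for fMLP and any called in any comparison with all 10 arrays or without fMLP KO replicate 2; the 10 most alike genes; and the 3 brightest markers of a list where described. Some markers called without fMLP KO replicate 2 were also named. Alternatives were the block, single array sets, normalization, filter, probe set rule, variance model and leaving out each array.

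Replicate numbers are shared between the groups. Among unstimulated arrays, deviations from the group mean correlated at 0.949, 0.929 and 0.988 for the same number in KO and WT, which is also the split into array sets. Different numbers within set 1 correlated at 0.866 and 0.874, and same numbers there at 0.464 once the set was removed. The 2 fMLP pairs had 0.0598. The main fit holds no term for the replicate number. Arrays with the same number are set side by side as a description only, for the unstimulated and the fMLP samples. The labels do not say what the number marks.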

Additional observations from a re-analysis of the deposited data

How the results depend on the processing

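Over all alternatives other than leaving out an array, the log2 differences of the members kept their sign in 61 of 70 values for KO against WT unstimulated, 63 of 63 after fMLP, 62 of 63 for fMLP and 62 of 63 for the interaction. Many alternatives could not move an estimate, so these counts are no measure of robustness. For Cd74 after fMLP, KO minus WT was -0.18 with all 10 arrays, within array set 2, without a block and with the replicate block. KO minus WT in unstimulated cells turned within array set 1 for Cd74 (-0.15), Ciita (-0.010), H2-Aa (-0.35), H2-Ab1 (-0.16) and H2-Eb1 (-0.23), and within array set 2 for H2-DMa (0.040). With quantile normalization it turned for H2-Aa (-0.11) and H2-Eb1 (-0.011), and with median centring for H2-Eb1 (-0.016). Quantile normalization also turned the interaction of H2-Aa (0.034). The cause was not tested.

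A replicate block could only stand in place of the array set block. The averaged fMLP difference then sets the fMLP arrays against set 1 alone, so it cannot be told apart from the difference between array sets. Under the replicate block 6 of the 7 members were called higher for fMLP, where 46.2% of all genes were, and Ciita turned to -0.039. It changed no other count of members called. With the array set block 48 of all genes were called for fMLP, against 10 without a block, 77 with a variance trend, 0 within array set 2 (886 at an unadjusted p below 0.05, limma) and 11758 with the replicate block.

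Leaving out each array in turn, the number of members called was 0 to 4 for fMLP, 0 to 5 for KO against WT after fMLP and 0 to 3 for the interaction. The lowest and highest KO minus WT differences in unstimulated cells were -0.15 and 0.65 for Cd74, -0.010 and 0.16 for Ciita, -0.35 and 0.63 for H2-Aa, -0.16 and 0.47 for H2-Ab1, -0.23 and 0.22 for H2-Eb1 and -0.061 and 0.052 for H2-DMa. After fMLP they were -0.71 and 0.35 for Cd74, -0.70 and 0.37 for Ciita, -1.10 and 0.57 for H2-Aa, -1.20 and 0.51 for H2-Ab1, -0.94 and 0.41 for H2-Eb1, -1.08 and 0.42 for H2-DMa and -1.05 and 0.48 for H2-Ob. For the interaction they were -0.89 and 0.17 for Cd74, -0.79 and 0.29 for Ciita, -1.15 and 0.52 for H2-Aa, -1.31 and 0.40 for H2-Ab1, -0.94 and 0.41 for H2-Eb1, -1.07 and 0.43 for H2-DMa and -1.30 and 0.24 for H2-Ob. After fMLP and for the interaction, the lowest came without fMLP KO replicate 1 and the highest without fMLP KO replicate 2. Without unstimulated WT replicate 3, the fMLP difference of Cd74 was 0.43 and that of H2-Aa 0.19, and without unstimulated KO replicate 3 they were 1.41 and 1.37. Each of these fits kept 1 unstimulated array of set 2.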
